A study of Homo sapiens with 34 samples.

Results

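The fusion protein TAZ-CAMTA1 had 362 sites on the chromosomes of SW872 cells that carried a peak in its own list and in no other construct's list. They were found by merging every peak that overlapped another by at least 1 bp, on chromosomes 1 to 22 and X, over the 6 lists of TAZ-CAMTA1, YAP-TFE3, TAZ4SA, YAP5SA, TFE3 and CAMTA1. The merge gave 6543 regions, of which 1178 held a TAZ-CAMTA1 peak, and the sites made up 30.7% (95% Wilson interval 28.2% to 33.4%) of these 1178. Each site was a single TAZ-CAMTA1 peak, and the other 816 regions were shared with at least 1 other construct. The sites were chosen by a measured value, the call of a peak in each list, so the fold enrichment, p-value and q-value of their peaks are given as a description and not as evidence that the sites differ from other regions.

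The assay was Flag chromatin immunoprecipitation followed by sequencing in SW872, a human liposarcoma line, made to express 1 Flag-tagged construct by stable retroviral transduction or carrying an empty vector (EV). TAZ4SA and YAP5SA are TAZ and YAP made active by changing the serines that LATS kinases phosphorylate into alanines, CAMTA1 and TFE3 are the full-length carboxy-terminal partners, and TAZ-CAMTA1 and YAP-TFE3 are the fusions. There were 34 libraries, namely 3 Flag immunoprecipitations per construct (18 in all), 2 IgG immunoprecipitations of EV cells, and 2 inputs for EV and for every construct (14 in all). By the labels the CAMTA1 cells were collected below confluence and all other cells near it, whereas the methods of the study have every line harvested near confluence. The constructs were expressed from a vector in a sarcoma line that was not derived from the tumour that carries the fusion. The reads of a construct's libraries were pooled before peaks were called, so each construct had 1 list, no value has a replicate error, no test between constructs was possible, and intervals are 95% Wilson intervals that cover counting error only.

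TAZ and YAP are transcriptional coactivators held in check by the Hippo pathway, in which LATS kinases phosphorylate them and keep them out of the nucleus. They have no DNA-binding domain of their own and reach chromatin mainly through the TEAD transcription factors. TAZ-CAMTA1, the defining fusion of most epithelioid hemangioendotheliomas, joins the TEAD-binding amino terminus of TAZ to the carboxy terminus of the transcription factor CAMTA1, and TFE3, the partner in YAP-TFE3, is a transcription factor with a basic helix-loop-helix leucine zipper that binds DNA itself.

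The 7 lists held between 29 peaks for EV IgG and 3857 for YAP5SA, and the TAZ-CAMTA1 list held 1224, of which 1184 were on chromosomes and 40 on unplaced scaffolds. On chromosomes the YAP5SA list had 3754 peaks and the YAP-TFE3 list 3336, against 1166 for TAZ4SA, 299 for TFE3 and 156 for CAMTA1. A TAZ-CAMTA1 region therefore had far more YAP5SA and YAP-TFE3 peaks to meet than TAZ4SA or CAMTA1 peaks. The number of Flag libraries per construct was equal. With the YAP5SA and YAP-TFE3 lists cut to their strongest peaks by q, as many as the TAZ-CAMTA1 list has, the number of sites was 570 in place of 362. Shorter lists can add sites and never remove one, so the value gives the size of the rise and its direction was fixed by the cut.

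The 816 shared regions showed which constructs met TAZ-CAMTA1. A peak of YAP5SA was present in 658 of them, of YAP-TFE3 in 604, of TAZ4SA in 384, of TFE3 in 11 and of CAMTA1 in 3. The commonest combination was TAZ4SA with YAP5SA and YAP-TFE3, at 264 regions, followed by YAP5SA with YAP-TFE3, at 198. Regions shared with YAP5SA alone numbered 122, with YAP-TFE3 alone 104, with TAZ4SA alone 24 and with CAMTA1 alone 2. Thus the active form of the amino-terminal parent and the full-length carboxy-terminal parent as the only partners removed few regions from the sites. The YAP constructs, which had the longest lists, removed most. As a part of its own regions, TAZ4SA met TAZ-CAMTA1 more often, in 384 of 1156, against 658 of 3745 for YAP5SA and 604 of 3316 for YAP-TFE3. With the TAZ4SA list set aside the number of sites rose to 387, and with the CAMTA1 list set aside to 364. With the YAP5SA list set aside it rose to 490, and with the YAP-TFE3 list set aside to 466.

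**Figure D1:**
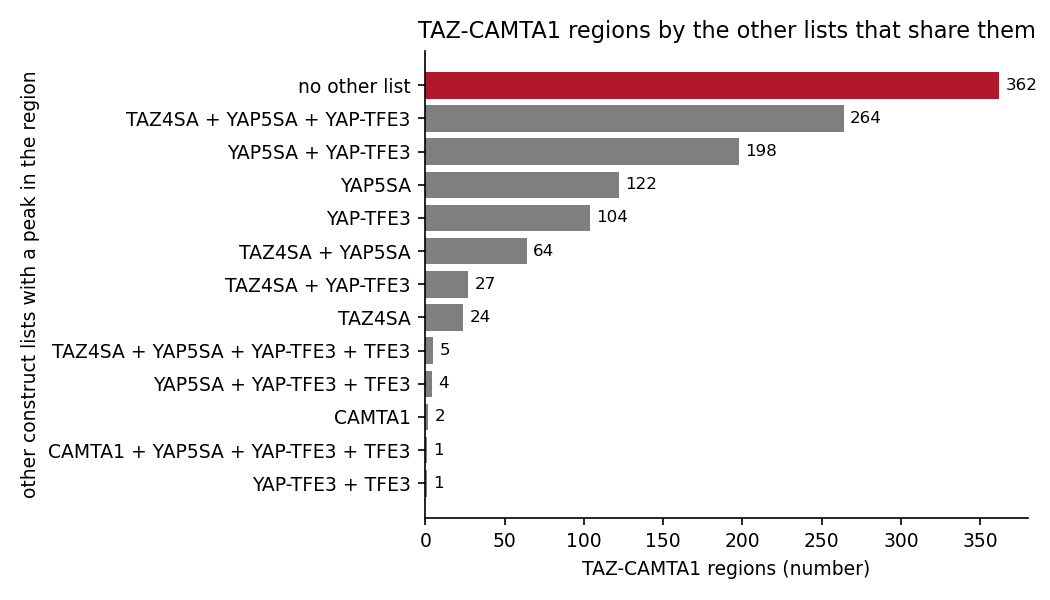
Number of TAZ-CAMTA1 regions (x axis) for each combination of other construct lists with a peak in the same region (y axis). The red bar is the 362 sites found with no other construct, and the next bars are 264 regions shared with TAZ4SA, YAP5SA and YAP-TFE3 and 198 shared with YAP5SA and YAP-TFE3.

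The same count was made for the other lists. Regions found with a single construct were 22.3% of the TAZ4SA regions, 258 of 1156, and 89.1% (83.2% to 93.1%) of the CAMTA1 regions, 139 of 156. They were 50.7% of the YAP5SA regions, 1897 of 3745, 49.8% of the YAP-TFE3 regions, 1653 of 3316, and 19.1% of the TFE3 regions, 57 of 298. The TAZ-CAMTA1 share of 30.7% thus lay between that of TAZ4SA and those of the YAP constructs. The lists differ in length, and what the shares owe to length cannot be told apart from what they owe to the construct.

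Peaks at the sites were weak on the whole. Fold enrichment, the pileup of fragments at the summit over the local background, ran from 2.3 to 14.2 at the sites with a median of 4.26 (interquartile range 3.79 to 5.11), and from 1.78 to 73.8 at the shared regions with a median of 5.68. The ratio of the medians was 0.75. The deposited −log10 q had a median of 3.39 at the sites and 8.07 at the shared regions, and −log10 p had medians of 7.48 and 12.6. The distributions overlapped in part. In fold enrichment 55 sites, or 15.2%, lay above the median of the shared regions, and 139 shared regions, or 17.0%, lay below the median of the sites. In −log10 q 47 sites, or 13.0%, lay above the median of the shared regions. The peaks were also narrower, at a median of 336 bp against 442 bp, with a range of 258 to 1228 bp at the sites.

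The enrichment of TAZ-CAMTA1 regions went up with the number of other constructs that had a peak there. Median fold enrichment was 4.26 in the 362 sites, 5.11 in the 252 regions shared with 1 other construct, 5.67 in the 290 shared with 2, 6.54 in the 268 shared with 3 and 6.39 in the 6 shared with 4. The sites were at the low end of this series, which fell back slightly in its last and smallest class. The classes were set by the calls in the lists, so these medians are a description and no test was made on them.

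**Figure D2:**
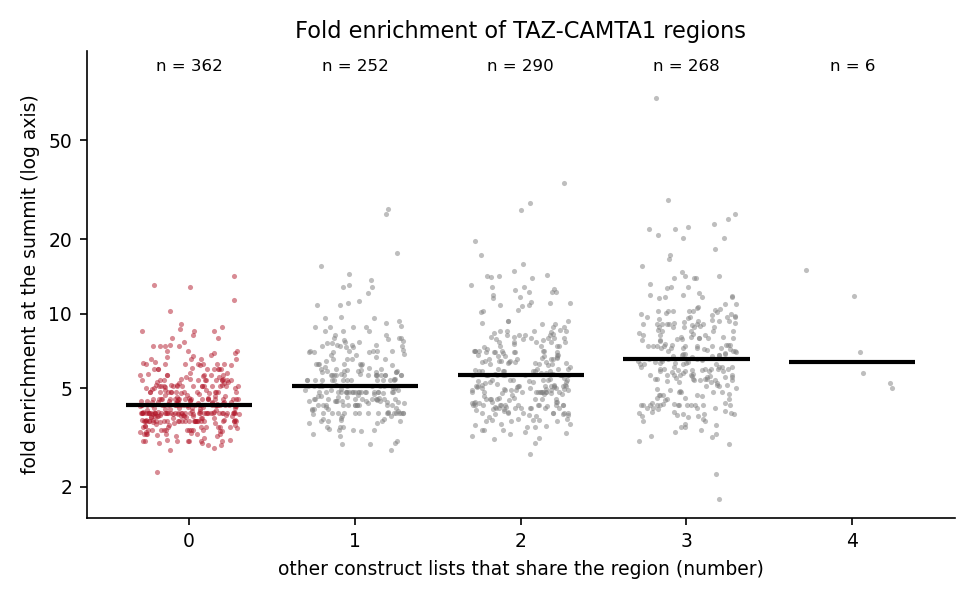
Fold enrichment at the summit of the strongest TAZ-CAMTA1 peak of each region (y axis, log scale) by the number of other construct lists that share the region (x axis). Each point is 1 region, red points are the 362 sites, and the black lines are the medians, which lie at 4.26, 5.11, 5.67, 6.54 and 6.39.

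A q-value of 0.01 or less, which is a −log10 q of at least 2, was met by 290 sites, or 80.1%, where 91.4% of all TAZ-CAMTA1 regions and 96.4% of the shared ones met it. A −log10 q of at least 5 was met by 119 sites (32.9%), against 59.3% of all regions. At least 10 was met by 28 sites (7.73%), against 30.9%. A fold enrichment of 5 or more was found at 104 sites (28.7%), where 53.0% of all regions had it. The sites fell below the whole list at every one of these levels, and these are the same values that take part in calling a peak.

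When all 1178 regions were ranked by −log10 q and divided into 4 classes of equal size, the sites made up 7.12% (4.7% to 10.6%) of the strongest class, 20.3% of the next, 36.4% of the one after and 59.2% (53.5% to 64.6%) of the weakest. The weakest class held 174 of the 362 sites, or 48.1%, and the strongest held 21. The first site stood at rank 24, the median site at rank 865, and 4 sites were among the strongest 100 regions.

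The number of fragments behind each site was recovered from the deposited fold enrichment and p-value, which together fix it when it is whole. A site had between 11 and 76 fragments over its summit with a median of 15.5, and a shared region had a median of 22. Of the 362 sites 181 had at most 15 fragments, 119 had 16 to 20, 56 had 21 to 30 and 6 had 31 or more. The single commonest fold enrichment, 3.98, was that of 33 sites, each with 13 fragments over a background of 2.52 fragments and a −log10 q of 2.38. A count of 13 has an exact 95% Poisson interval of 6.92 to 22.2, and the largest count, 76, has one of 59.9 to 95.1. These intervals cover the counting error of a single count only. They make no allowance for the choice of summits, of peaks that passed the caller, or of the largest count.

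The lowest background, 2.52 fragments, was shared by 174 sites, or 48.1% (43.0% to 53.2%), where 42.1% (39.3% to 44.9%) of all TAZ-CAMTA1 regions had it. At that background a peak needed 11 fragments to be in the list. Of these 174 sites 80, or 46.0% (38.7% to 53.4%), had at most 3 fragments more than this minimum. Of the 321 shared regions at the same background 55, or 17.1% (13.4% to 21.6%), did. Of all 495 regions there 135, or 27.3% (23.5% to 31.4%), did. With the background held equal in this way, the median was 15 fragments at the sites, 19 at the shared regions and 18 over both. The fragment count takes part in calling a peak, so these shares and medians are a description. The lowest count called was 11 in the TAZ4SA and CAMTA1 lists as well, over lowest backgrounds of 2.33 and 2.21 fragments.

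**Figure D3:**
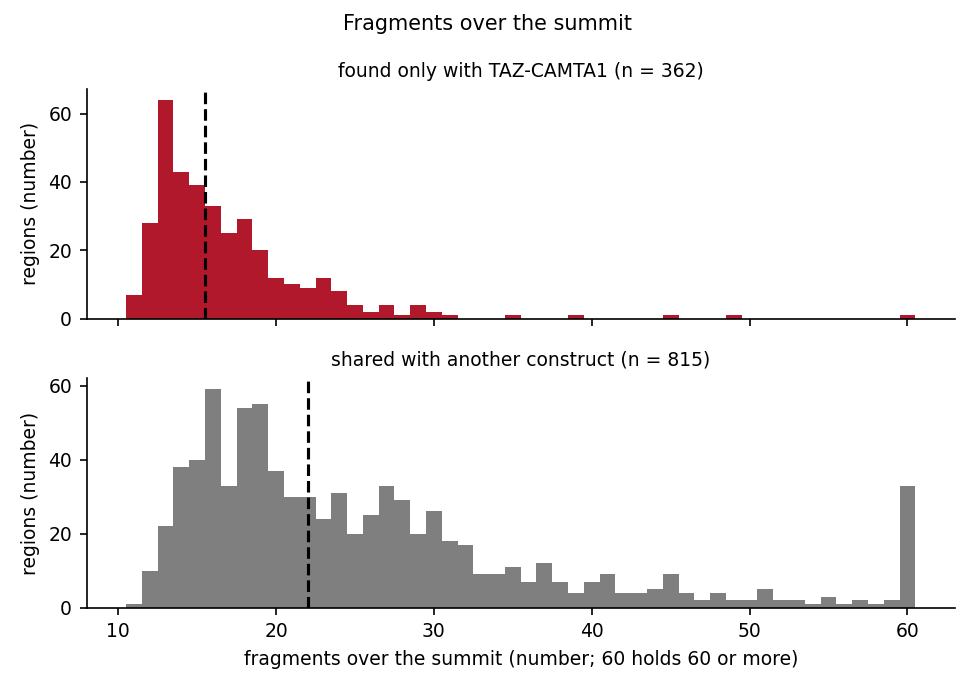
Number of TAZ-CAMTA1 regions (y axis) by the fragments over the summit (x axis; the last bar holds 60 or more), for the 362 sites above and the 815 shared regions with a recovered count below. Dashed lines mark the medians, 15.5 and 22 fragments, and the sites crowd against the lowest called count of 11.

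The strongest sites stood well clear of that minimum. Strongest by q was chr11:12695648-12696339 (GRCh37, 1-based, as are all positions here), with a fold enrichment of 12.8 and 76 fragments over a background of 5.02. Its −log10 q was 55.4. It was the one site of the strongest 10, ties included, whose background was far above the lowest value, and the nearest peak of another construct, YAP-TFE3, was 18.2 kb away. The highest fold enrichment, 14.2, belonged to chr17:40575233-40575965, with 49 fragments and a −log10 q of 39.8, and a YAP5SA peak lay 4.31 kb off. The next by q was chr3:11760965-11761840, with 45 fragments, a −log10 q of 34.8 and a fold enrichment of 13.1, and no other construct's peak lay within 100 kb, the nearest being of YAP-TFE3 at 119 kb. After it came chr17:55952432-55953028, with 39 fragments, a −log10 q of 27.6 and a fold enrichment of 11.4, and here the nearest peak, of YAP5SA, was 401 kb away. These 4 were the sites among the strongest 100 regions, at ranks 24, 46, 58 and 87, and each was wider than the median site, at 692, 733, 876 and 597 bp.

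The rest of the strongest 10, with 1 more that tied with the last of them, had 29 to 35 fragments and fold enrichments of 8.52 to 10.2. They were chr3:37977809-37978139 with a fold enrichment of 10.2, chr9:91149434-91150423 with 9.09, chr6:158402258-158402799 with 8.8 and chr2:42365721-42365987 with 8.64. The last place was shared by 3 sites, chr10:95048585-95049037, chr12:124985044-124985492 and chr14:20810676-20811008, each with 29 fragments, a −log10 q of 16.4 and a fold enrichment of 8.52. The site on chromosome 2 was the only one of these 11 sites whose nearest peak was of TAZ4SA, at 9.52 kb. For 7 of the 11 the nearest peak was of YAP-TFE3 and for 3 of YAP5SA. The site on chromosome 9 was the widest of the 11 at 990 bp, and that on chromosome 2 the narrowest at 267 bp.

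At the other end, 7 sites on 6 chromosomes tied just inside the caller's q threshold. Each had 13 fragments over a background of 3.58, a −log10 q of 1.06 and a fold enrichment of 3.05, and they were 260 to 568 bp wide. Of these, chr11:122188212-122188545 and chr15:70581918-70582221 are examples, and nothing in their values sets them apart from the other 5. The threshold of the merge itself was 1 bp of overlap. Just outside it were chr5:171530084-171530720, which shared 1 bp with a YAP-TFE3 peak and had a fold enrichment of 5.43, chr5:31853831-31854099, which shared 16 bp with a YAP5SA peak and had 3.13, and chr8:11368114-11368472, which shared 18 bp with a YAP5SA peak and had 3.98. Just inside it, as the sites nearest to another construct's peak, were chr8:13051438-13051855, 45 bp from a YAP5SA peak with a fold enrichment of 5.96, chr12:1714807-1715268, 130 bp from a YAP-TFE3 peak with 5.11, and chr9:109679615-109679892, 155 bp from a YAP5SA peak with 4.54. Few regions were so near the limit: 8 of the 816 shared regions overlapped by 50 bp or less, and the median overlap was 350 bp.

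Most sites had no peak of another construct within 10 kb, and most shared TAZ-CAMTA1 regions had none outside the region within that distance either. The distance from the edge of a site to the nearest edge of any other construct's peak ran from 45 bp to 12367 kb, with a median of 52.1 kb and an interquartile range of 11.3 to 174 kb. A peak of another construct lay within 1 kb of 29 sites (8.01%), where 7.81% of all TAZ-CAMTA1 regions had one outside the region. It lay within 10 kb of 83 sites (22.9%; 18.9% to 27.5%), against 29.0% of all regions and 31.7% (28.6% to 35.0%) of the shared ones. Within 100 kb the share was 63.8%, against 71.0% of all regions, and within 1000 kb it was 94.2%, against 96.7%. The shared regions had a median distance of 31.4 kb to the next peak outside them, so that beyond 1 kb the sites lay somewhat farther from other constructs than the shared regions did. The rule removed overlaps and so set the shortest distances at the sites. It also made the shared regions those with another construct's peak in them, so their distance to the next peak is not independent of the rule. That distance was taken from the edge of the merged region, which can be wider than a single peak. The difference is therefore a description.

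The distance depended on which construct was asked. The median was 87.1 kb to a YAP-TFE3 peak, 114 kb to a YAP5SA peak and 404 kb to a TAZ4SA peak. It was 3405 kb to a TFE3 peak and 5175 kb to a CAMTA1 peak, each over the 355 sites on a chromosome where that list had a peak. Peaks within 10 kb were of YAP-TFE3 at 63 sites, of YAP5SA at 56, of TAZ4SA at 23, of TFE3 at 2 and of CAMTA1 at 1. The distances grew as the lists became shorter, except that the YAP-TFE3 list, with 3336 peaks, lay nearer by the median than the YAP5SA list, with 3754. Full-length CAMTA1, the parent that gives the fusion its carboxy terminus, was the farthest of the 5 and had the shortest list, at 156 peaks. These distances by construct were not set beside those of other TAZ-CAMTA1 regions, so they do not show a trait particular to the sites. What the distances owe to list length was not tested.

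**Figure D4:**
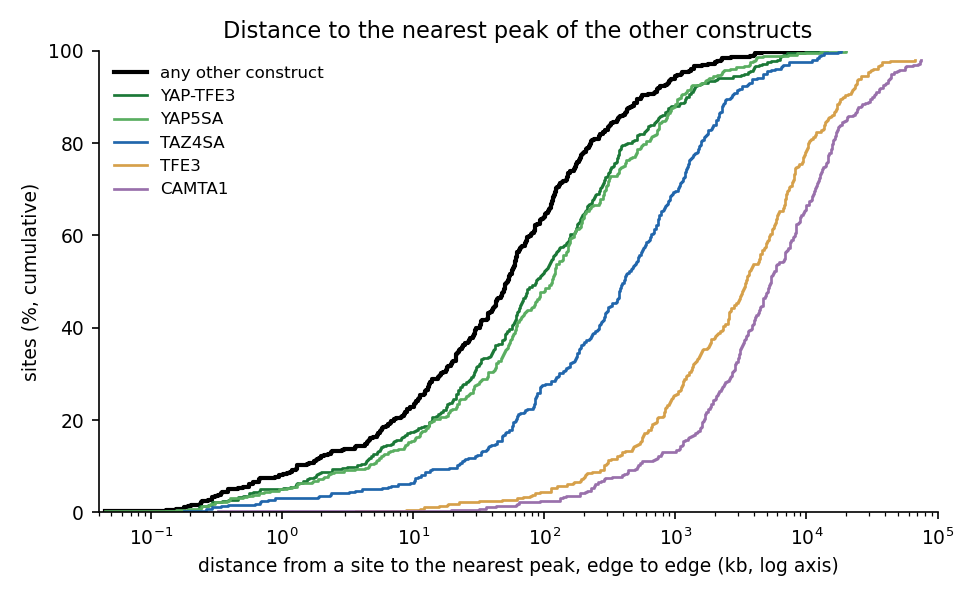
Cumulative share of the 362 sites (y axis, percent) by the distance from the edge of the site to the nearest peak (x axis, kb, log scale), for each other construct list and for any of them (black). The black line reaches 22.9% at 10 kb and 63.8% at 100 kb, and the TFE3 and CAMTA1 lines lie farthest to the right.

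Sites near another construct's peak and sites far from one had much the same enrichment, except that the most isolated were slightly weaker. Median fold enrichment was 4.28 in the 83 sites with a peak of another construct within 10 kb and 4.26 in the other 279. It was 4.19 in the 131 sites with none within 100 kb and 3.98 in the 21 with none within 1000 kb. The farthest site of all was chr3:86914672-86914984, 12367 kb from the nearest TAZ4SA peak, with 13 fragments and a fold enrichment of 3.98. Split by strength, the share of sites with another construct's peak within 10 kb was 14.3% (4.98% to 34.6%) in the strongest class of all regions, where 21 sites lay, and between 20.7% and 27.1% in each of the others. Among shared regions of the same classes it was 33.9%, 29.4%, 33.2% and 29.2%. The sites were lower in each class, with intervals that overlapped those of the shared regions in all 4.

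Distances were also taken from each site to the next site and to the next shared TAZ-CAMTA1 region. They were not set beside the spacing of the shared regions, so they do not show whether the sites were unusually isolated. The median distance to the next site was 1586 kb and to the next shared TAZ-CAMTA1 region 504 kb, with 28 sites within 10 kb of the latter. Another site lay within 10 kb of 6 sites, as 3 pairs. On chromosome 4 a gap of 1102 bp separated chr4:129731925-129732353 and chr4:129733455-129733772, with fold enrichments of 5.4 and 4.83. On chromosome 20 the gap was 5627 bp, between chr20:42838826-42839323 at 3.97 and chr20:42844950-42845318 at 3.54, and on chromosome 8 it was 6766 bp, between chr8:119214273-119214617 at 4.54 and chr8:119221383-119221775 at 5.4.

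Sites were found on all 23 chromosomes that were read. Chromosome 11 held 32, chromosome 7 held 31, chromosome 2 held 30 and chromosome 9 held 23, while chromosomes 5 and 20 held 22 each. Chromosomes 7 and 11 were also the richest in all TAZ-CAMTA1 regions, with 116 and 114, of which 26.7% and 28.1% were sites. The share of a chromosome's TAZ-CAMTA1 regions that were sites was highest on chromosome 4, at 58.3% (38.8% to 75.5%), 14 of 24 regions. It was 22.4% (15.3% to 31.7%) on chromosome 5, 22 of 98 regions, and on chromosome X 1 of 10 regions was a site (interval 1.79% to 40.4%). On chromosome 20 the count was 22 of 71 regions, an interval of 21.4% to 42.5%. Chromosome 4 was the only one of the 23 whose interval did not contain 30.7%, and it was singled out after its value was seen.

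**Figure D5:**
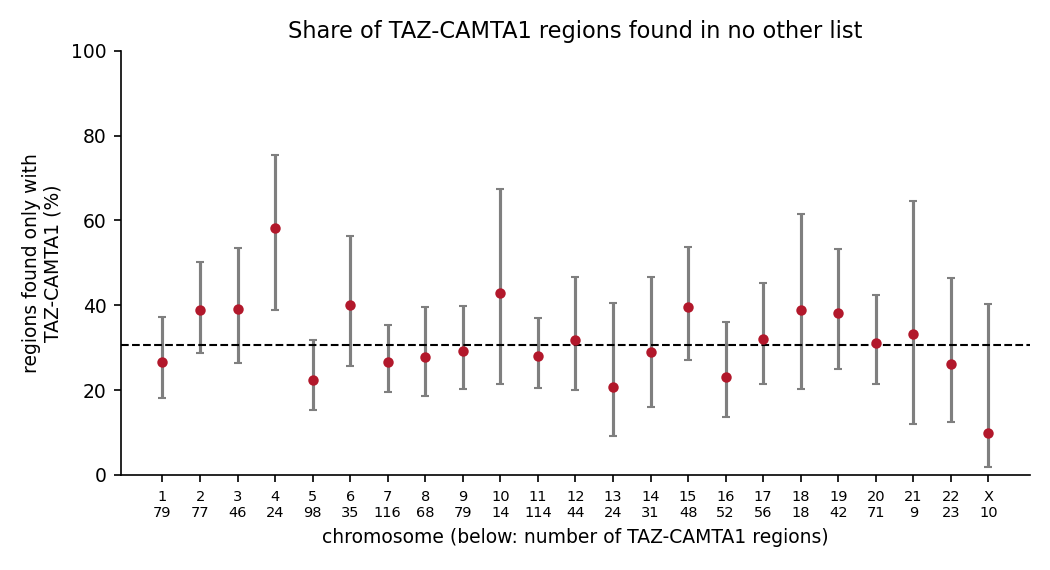
Percent of the TAZ-CAMTA1 regions of each chromosome that were found with no other construct (y axis), by chromosome (x axis, with the number of regions below). Points are the shares, bars are 95% Wilson intervals and the dashed line is the 30.7% of all 1178 regions, and chromosome 4 lies highest at 58.3%.

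The local background differed between chromosomes, at the sites as at the shared regions, where the median was 4.81 fragments on chromosome 13 and 3.92 on chromosome 5. The median background at the sites was 5.12 fragments on chromosome 13, 3.58 on chromosome 5, 3.02 on chromosome 7 and 2.99 on chromosome 20, and 2.52 on 14 of the others. On chromosome 13, with 5 sites, median fold enrichment at the sites was 2.94, and on chromosome 5 it was 3.72, against 4.26 for all sites. A background above the lowest value was found at 188 sites, or 51.9% (46.8% to 57.0%), and at 494 of 815 shared regions, or 60.6% (57.2% to 63.9%). The lowest value itself was found at 42.1% of all TAZ-CAMTA1 regions. From the strongest class to the weakest, a background above it was found at 19.0% (7.67% to 40.0%; 21 sites), 41.7%, 60.7% and 54.0% of the sites. At the shared regions of these classes the shares were 61.5% (55.6% to 67.1%), 60.4%, 63.6% and 54.2%. The classes were set by −log10 q, which rests on the background and the fragment count. The split is therefore not independent of the background and is a description. Whether the number of DNA copies of these chromosomes in the cell line had a part in the background was not tested.

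The EV IgG list came from IgG immunoprecipitations of cells without a Flag construct, and did not measure signal of the Flag antibody in such cells. Of its 29 peaks 4 were on chromosomes, and 0 of 362 sites overlapped one, with the nearest at 262 kb. None of the 816 shared regions did either, so that 0% of the TAZ-CAMTA1 regions did. A list of 4 peaks can overlap few regions of any set, so no conclusion is drawn from the count of 0. On unplaced scaffolds, which were not counted among the sites, 1 of 33 TAZ-CAMTA1 regions was in no other construct's list, and it had a fold enrichment of 1.48 and overlapped an IgG peak.

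The nearest comparator for the values at the sites was the set of 258 TAZ4SA regions that no other construct shared, since both lists were called at the same scale. Their peaks had a median fold enrichment of 4.51, a median −log10 q of 3.78 and a median of 15.5 fragments, and the highest fold enrichment was 18.9. The TAZ4SA peaks shared with another construct, 908 in number, had medians of 6.61 and 11.4 and a median of 25 fragments. The lower values of unshared peaks were therefore seen in the TAZ4SA list too. The CAMTA1 list was mixed. Its 139 unshared peaks had a higher median fold enrichment than its 17 shared ones, 6.08 against 5.78, and fewer fragments by the median, 22 against 29. The CAMTA1 peaks outside every other list were thus of higher enrichment, by the median, than the sites of the fusion that carries the carboxy terminus of CAMTA1. The whole lists on chromosomes differed in the same direction, with medians of 6.04 for CAMTA1 and 5.11 for TAZ-CAMTA1, and came from separate immunoprecipitations.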

How the data were processed

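The authors trimmed reads with Atropos in bcbio-nextgen, aligned them with BWA-MEM to GRCh37, dropped multi-mapping reads and greylisted regions, pooled replicates and ran macs2 on paired-end fragments at a q threshold of 0.1. Which control libraries set the local background was not given in the sources used here. The labels name hg38, but 45 of 10414 deposited peaks, 1 of them a site, ended past the end of the GRCh38 chromosome of the same name, and positions were read as GRCh37. The deposited fold enrichment is a ratio of pileup to background, each with 1 added. The deposited p-value and q-value are −log10 values. The display score deposited by the authors was not used. No value column was left without a group.

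Peaks were merged and counted in Python 3.11.15 with pandas 2.3.3, numpy 2.4.6, scipy 1.17.1 and matplotlib 3.10.9. Where a region held several TAZ-CAMTA1 peaks, the strongest gave its values. Fragment counts were solved from fold enrichment and p within 0.0002 in −log10 p, with 1 solution for 1183 of 1184 TAZ-CAMTA1 peaks, 1165 of 1166 TAZ4SA peaks and 156 of 156 CAMTA1 peaks. The merge and the solution were tested on simulated data. No model across regions was fitted and no p-value was computed. Samples were grouped by their labels. The members and lists were chosen with earlier results of these data known. Sites named were the 10 highest by −log10 q with 1 tied with the last, the 3 highest by fold enrichment, 2 of the 7 tied at the lowest −log10 q, the 3 nearest another construct's peak, the 3 shared regions of smallest overlap and pairs of sites within 10 kb. The farthest site and the chromosomes named were chosen after their values were seen. Alternatives were other overlap rules, stricter q, scaffolds kept, IgG peaks used, lists left out or shortened, summit distances and −log10 p. The supplied genome and annotation were of GRCh38, and coordinates were not converted, so genes, motifs and sequences at the sites were not analysed here.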

Additional observations from a re-analysis of the deposited data

How the results depend on the processing

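No paired analysis was possible because the replicates of each construct were pooled into 1 list, which also meant that leaving out a replicate could not be tried. Of 80 alternative values over 6 results, 56 stayed within the counting interval or within 1.5 times the number, and 24 moved. With 50% reciprocal overlap 527 sites were 44.5% of 1184 TAZ-CAMTA1 peaks, which were taken singly and not merged into regions. Their median fold enrichment was 4.4 and their median distance 13.2 kb. With peaks up to 5 kb apart merged the share was 26.7% and the distance 71.4 kb. With TAZ-CAMTA1 peaks of q below 0.01 alone the share was 26.9%, the median fold enrichment 4.54 and its ratio to shared regions 0.797, and with all lists so limited they were within the interval, 4.54 and 0.786. Without the YAP5SA list the share was 41.5%, the median fold enrichment 4.44 and the distance 66.4 kb. Without the YAP-TFE3 list these were 39.6%, 4.4 and 98.8 kb, and the ratio was 0.773. With both YAP lists cut to the TAZ-CAMTA1 length there were 570 sites, 48.4% of regions, at a median fold enrichment of 4.53 and 124 kb. The ratio of the medians was 0.593 on −log10 p. The number of sites with another construct's peak within 10 kb was recomputed as an alternative chosen after seeing the data, and was 248 with reciprocal overlap and 24 after the 5 kb merge, which by its construction removes sites up to 5 kb from a peak. Under reciprocal overlap every added site still overlapped another construct's peak in part and counted as at distance 0. This by construction lowered the median distance and raised the number within 10 kb. With a list left out or cut, distances were taken to the remaining peaks only. Apart from these constructions, the causes were not tested. Reciprocal overlap, lists left out and lists cut can add sites and cannot remove any. Of the 362 sites 342 remained when peaks up to 500 bp apart were merged, 302 when peaks up to 5 kb apart were, and 290 with all lists limited to q below 0.01. Motif shares, in windows of either size, were planned and not run. With a median of 15.5 fragments at a site, the depth limits what the absence of a peak in another list can show.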
